A study of Mus musculus with 18 samples.

Results

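Cytosolic ribosomal protein genes are the genes for the proteins of the ribosome that works outside the mitochondria. Members were all genes of the array table whose probesets carried exactly 1 symbol beginning with Rpl or Rps and a digit, or Rplp0, Rplp1, Rplp2 or Rpsa. Kinases and other genes with similar names (the Rps6k genes, Rps19bp1, Rpl7l1) and pseudogenes marked as such were left out, and each gene was read from its brightest probeset. The rule gave 48 genes of 18194, with 102 probesets between them: 25 genes of the large subunit and 23 of the small subunit. Of the 48, 46 passed the filter on low signal and were tested among 14505 genes, and the probesets of Rpl3l and Rps16 lay below it. Rps4l met the rule by name, although the RefSeq gene table lists it as a transcribed pseudogene.

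The study measured RNA from bone marrow of 18 C57Bl6 mice on Affymetrix arrays, 1 array per mouse. 4 mice were wild type (WT) and 14 were engineered to overexpress CCAT2, a long non-coding RNA of human origin, throughout the body. 4 of these mice carried the G allele (CCAT2-G), 4 the T allele (CCAT2-T), and 6 are labelled CCAT2-GT. The labels give CCAT2-G and CCAT2-T mice the status DRAI-, CCAT2-GT mice the status DRAI+ and WT mice none, without spelling out the term, so that DRAI+ and CCAT2-GT are the same 6 mice. The labels state neither age nor sex, nor the promoter of the transgene or the number of founder lines, and the level of CCAT2 itself was not analysed here.

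Each ribosome holds a single copy of nearly every ribosomal protein, joined to ribosomal RNA in a small subunit, which decodes the message, and a large subunit, which forms the peptide bond. Their mRNAs belong to the most abundant in dividing cells and are known for starting with a C and a run of pyrimidines, the 5′ terminal oligopyrimidine (TOP) tract, through which mTOR and LARP1 regulate their translation. Translation does not show in an mRNA level. In bone marrow these genes are known from Diamond-Blackfan anaemia, in which loss of a single copy of RPS19 or of several other ribosomal protein genes impairs the formation of red cells, and from the loss of RPS14 in myelodysplastic syndrome with a deletion on a chromosome arm.

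Promoter sequences are shown because many of these mRNAs are known to begin with a TOP tract, as do mRNAs of other translation genes. RefSeq promoter entries (build GRCm38.p6, 250 bases before to 50 after the annotated start) were held for 42 of the 48 genes. The windows below run from 40 bases before the start to 20 bases from the start on, written 5′ to 3′ along the gene's own strand. Capitals mark the first C followed by at least 4 further C or T that begins within those last 20 bases, and later stretches are in lower case. The first 8 genes are those whose entry begins the tract at the annotated start itself. The other 4 are described below by mouse in the comparison of alleles: Rps26, Rps27l and Rpl27, which had an unadjusted p under 0.05 there, and the paralog Rpl22l1, which did not.
Rpl14 (chr9:120571477-120571536, + strand): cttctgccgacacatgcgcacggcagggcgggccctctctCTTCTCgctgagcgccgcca
Rpl35 (chr2:39005112-39005171, - strand): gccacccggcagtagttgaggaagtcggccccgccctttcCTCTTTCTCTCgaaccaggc
Rpl38 (chr11:114668540-114668599, + strand): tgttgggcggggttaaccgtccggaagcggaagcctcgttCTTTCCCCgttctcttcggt
Rplp2 (chr7:141447611-141447670, + strand): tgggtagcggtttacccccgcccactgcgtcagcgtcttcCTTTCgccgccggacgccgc
Rps6 (chr4:86857348-86857407, - strand): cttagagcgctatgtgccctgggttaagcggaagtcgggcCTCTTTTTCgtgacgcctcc
Rps10 (chr17:27635225-27635284, - strand): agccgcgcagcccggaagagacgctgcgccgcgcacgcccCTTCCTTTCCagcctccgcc
Rps18 (chr17:33955646-33955705, - strand): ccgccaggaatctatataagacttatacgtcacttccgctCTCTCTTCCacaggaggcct
Rps27 (chr3:90213629-90213688, - strand): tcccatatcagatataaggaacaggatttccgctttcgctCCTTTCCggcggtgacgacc
Rps26 (chr10:128626487-128626546, - strand): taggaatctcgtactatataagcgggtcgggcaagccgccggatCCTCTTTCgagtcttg
Rps27l (chr9:66946046-66946105, + strand): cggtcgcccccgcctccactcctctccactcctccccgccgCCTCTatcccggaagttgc
Rpl22l1 (chr3:28805468-28805527, + strand): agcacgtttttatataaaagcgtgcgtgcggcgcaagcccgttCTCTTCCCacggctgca
Rpl27 (chr11:101442205-101442264, + strand): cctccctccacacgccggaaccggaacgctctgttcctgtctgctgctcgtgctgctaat

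Of the 42 genes, 8 (19.0%) began such a tract at the annotated start, against 3.01% of all 27025 genes with an entry. A tract beginning anywhere in the 20 bases was held by 25 (59.5%), against 32.0%. The letters CCGGAAG, the core of the motif of ETS family factors such as GABPA, were found on either strand of the entry of 21 of the 42 genes, against 9.93% of all genes. The TATA box letters TATAAA were held by 6 (14.3%), against 15.7%. The letters AAGATGGC, a motif of YY1, were held by 3 (7.14%), against 3.19%, and CACGTG, the E-box bound by MYC, by 4 (9.52%), against 8.09%. All searches covered both strands of the whole entry except those for the tract, which kept to the gene's strand, no motif contains another, and a gene with several entries counted where any entry matched. The annotated start can differ from the one used in bone marrow, and these matches describe letters only.

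The probesets of 36 members had a mean above 10 on the log2 scale, and these bright members carry most of the results. The brightest were those of Rps29 at 13.24, Rps14 at 12.83 and Rpl13a at 12.78 (means over 18 mice). The lowest bright member was Rps27l at 10.33, and the next below it was Rpl27a at 8.40. A probeset's brightness depends on its probes as well as on the mRNA, so these values do not rank the mRNAs. The other 12 members were dim: Rpl27a, Rps25, Rps6, Rpl37, Rpl12, Rpl14, Rps27, Rps4l, Rpl39, Rpl39l, Rpl3l and Rps16. Rpl3l, the paralog of Rpl3 known from heart and skeletal muscle, had a mean of 3.30, and Rpl39l, the paralog of Rpl39 known from testis, one of 3.78. Rps16, a core protein of the small subunit, had a mean of 2.96, which is the signal of this probeset and not of the gene: another probeset, which lists Rps16 beside other symbols, had a mean of 13.07. The same held for Rps6, at 7.35 against 13.15, and for Rpl39, at 4.47 against 13.13. Dim probesets of core ribosomal proteins are therefore given below only as what those probesets read.

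Many ribosomal protein genes have processed pseudogenes of nearly the same sequence, and probes cannot always tell them apart. Of the 48 probesets used, 16 carry the plain suffix of a unique probe set, while 19 match several transcripts of the gene (_a_at), 2 match several genes (_s_at) and 11 hold probes that may bind unrelated transcripts (_x_at), by the maker's naming. A further 110 probesets list a ribosomal protein symbol beside other symbols and were outside the rule. They touch 46 genes, 31 of which are no members here, among them Rpl3, Rpl5, Rpl23 and Rplp1.

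The bright members were steady from mouse to mouse. The SD within groups had a median of 0.126 over the 36 bright members, against 0.245 over the 437 other genes with a mean above 10. Over the 46 tested members it was 0.146, against 0.231 over all 14505 genes. The steadiest were Rps29 (0.051), Rps14 (0.062), Rps10 (0.079), Rps15 (0.082) and Rps24 (0.096), all proteins of the small subunit. Rps29 lay between 13.16 and 13.41 in all 18 mice. Signals near the top of an array's range, where arrays read up to 14.2, can be compressed, and the part of this in the small SD was not tested. The largest SDs belonged to dim members: Rpl37 at 0.456, Rps4l at 0.387, Rpl27a and Rpl39l at 0.362, and Rpl12 at 0.340.

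The mean over the 36 bright members gives each mouse 1 value. In WT mice it was 12.12, 12.15, 12.22 and 12.39, and in CCAT2-G mice 12.09, 12.32, 12.26 and 12.32. In CCAT2-T mice it was 12.06, 12.00, 12.21 and 12.27, and in the 6 CCAT2-GT mice it ran from 12.13 through a median of 12.19 to 12.41. The lowest mouse was CCAT2-T replicate 2 and the highest CCAT2-GT replicate 6, and the 4 groups overlapped throughout. Group means were 12.22 ± 0.12 (SD, n = 4) for WT, 12.25 ± 0.11 (SD, n = 4) for CCAT2-G, 12.13 ± 0.12 (SD, n = 4) for CCAT2-T and 12.23 ± 0.096 (SD, n = 6) for CCAT2-GT. The largest difference between group means, CCAT2-G less CCAT2-T, was about the size of the SD within either group.

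**Figure D1:**
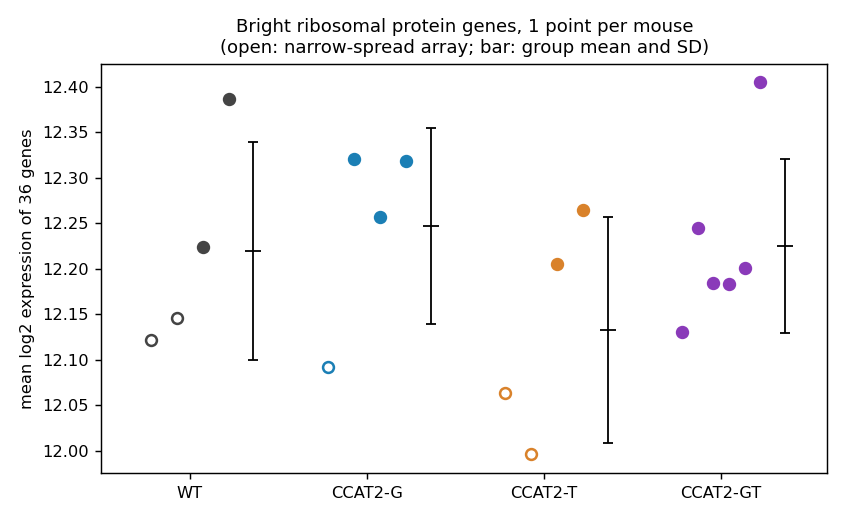
Mean log2 expression of the 36 bright ribosomal protein genes in each mouse (vertical axis), by group (horizontal axis); open points are the 5 arrays with a narrow spread of values, and bars give the group mean and SD. All 5 open points lie at or below 12.15 and the 4 groups overlap.

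The 5 arrays with the narrowest spread (interquartile range below 3.1 over all probesets) were the first 2 replicates of WT and of CCAT2-T, together with replicate 1 of CCAT2-G. No label names a batch, and no CCAT2-GT array was among them. On these arrays the mean over bright members ran from 12.00 to 12.15, and on the 13 wider arrays from 12.13 to 12.41. Of the 36 bright members, 35 were lower on the narrow arrays, with a median difference of -0.17. The same was true of 295 of the 437 other genes above 10, with a median of -0.14. After a further quantile normalization 30 of the 36 were lower, with a median of -0.09, against a median of -0.029 for the other bright genes. Mature B-cell markers moved the other way, with 13 of 13 higher on the narrow arrays by a median of 1.42, and 10 of 10 monocyte markers were lower (median -0.68). Whole marrow was measured, so fewer cells of a type and less RNA per cell cannot be told apart. The part of these arrays and of cell makeup in the levels of ribosomal protein genes was not tested.

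CCAT2-T replicate 2, a narrow array, had the lowest value of all 18 mice for 17 of the 36 bright members and lay below the gene's mean for all 36. CCAT2-GT replicate 6 had the highest value for 15 and lay above the gene's mean for 33. WT replicate 4 was highest for 8 and above the mean for 34. The last 2 mice also had high stromal markers (list means of 7.63 and 6.99, where 15 of the 18 mice lay at or below 6.72) and high megakaryocyte markers (10.39 and 9.14). In CCAT2-GT replicate 4, not a narrow array, the 2 list means were 7.07 and 10.69. Its mean over bright members was 12.18, near the low end of the 13 wider arrays, which ran from 12.13 to 12.41. The part of these cells in the high values was not tested.

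**Figure D2:**
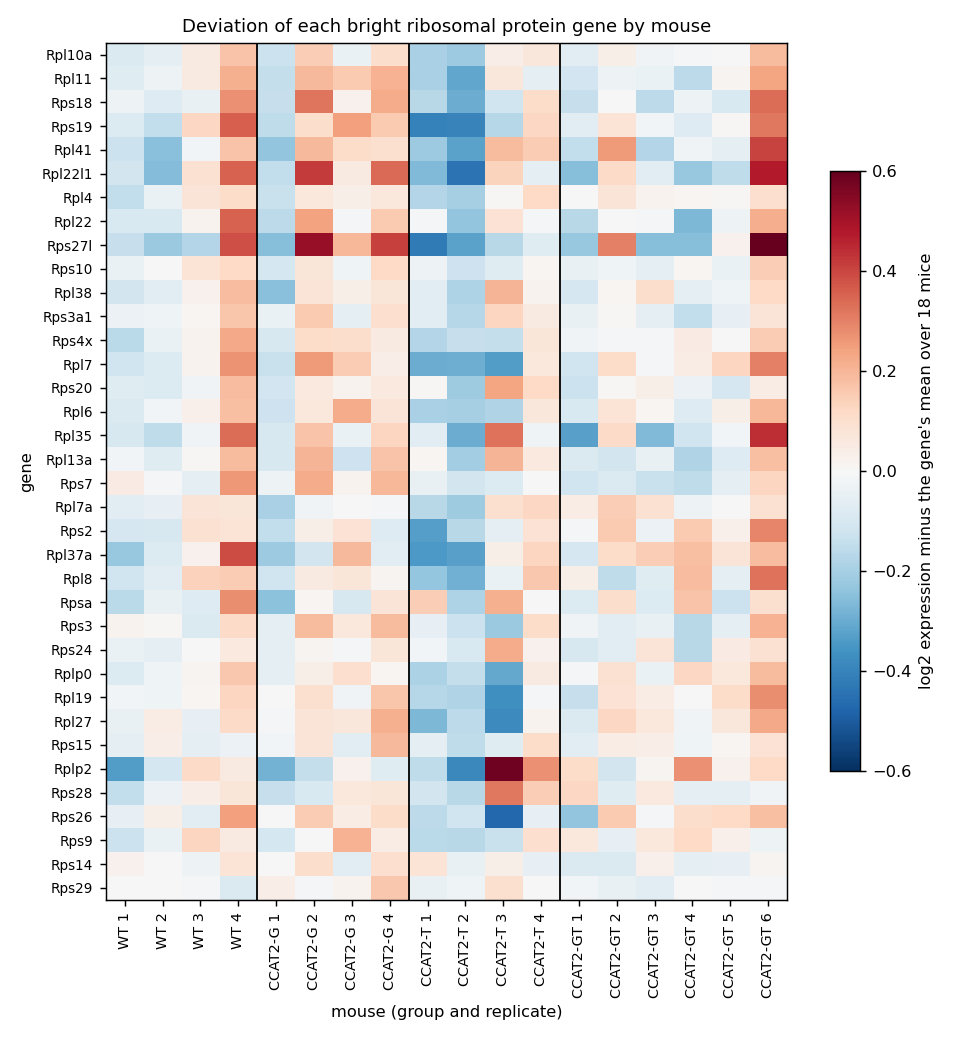
Each row is 1 of the 36 bright genes and each column 1 of 18 mice, by group; colour gives the log2 value minus the gene's mean over all mice, and genes are ordered by how closely they follow the other bright genes. WT replicate 4 and CCAT2-GT replicate 6 are mostly red, CCAT2-T replicate 2 is blue, and CCAT2-T replicate 3 holds both colours.

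The bright members went up and down together across mice. With group means removed, the median correlation between pairs of the 36 was 0.574 over 18 arrays, 95.4% of the pairs were positive, and the median was 0.403 when narrow and wider arrays were also centred apart. The median among the 437 other genes above 10 was 0.089. The points share arrays and normalization, so these are descriptions of the 18 arrays. Rpl10a, at the ribosome's L1 stalk, followed the mean of the others most closely (r = 0.96), next to Rpl11 (r = 0.92). Rps29 followed it least (r = 0.075), with Rps14 (0.35), Rps9 (0.36) and Rps26 (0.41). The 10 dim members tested correlated weakly among themselves (median 0.232).

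DRAI+ mice were compared with WT mice, and no ribosomal protein gene passed the test. limma with Benjamini-Hochberg adjustment called 0 of 46 members and 0 of 14505 genes (0%). At an unadjusted p under 0.05 there were 0 members, against 1.18% of all genes higher and 1.45% lower. No member had groups with separate ranges, against 0.338% of all genes apart and higher and 0.414% apart and lower. Of the 48 members 25 were higher and 23 lower, with a median difference of 0.00077 (49.5% of all genes tested were higher), and 44 of the 46 tested differed by less than 0.2. Among bright members the 95% intervals had a median half-width of 0.204 and reached no further than -0.40 and 0.52, which bounds what could have gone unseen for any of them.

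Within that comparison the large-subunit genes other than paralogs had 15 of 22 above 0 (median 0.038) and those of the small subunit 8 of 21 (median -0.020), which is a description with no test. Rps7, a small-subunit protein that also binds MDM2, had the smallest p among members lower in DRAI+ mice. Its values were 12.47, 12.40, 12.36 and 12.68 in WT mice and 12.26, 12.31 and 12.54 (lowest, median, highest) in DRAI+ mice. The groups overlapped, with a difference of -0.13 (SE 0.092, adjusted p = 1.0 by limma). Rps14, the gene lost in the human deletion syndrome, read 12.85, 12.82, 12.80 and 12.91 in WT mice and 12.74, 12.78 and 12.86 in DRAI+ mice. Its difference was -0.055 with a 95% interval from -0.20 to 0.087. Rpl13a (-0.080), Rps3a1 (-0.066) and Rpl22 (-0.092) completed the 5 of smallest p on the lower side. On the higher side stood Rpl37 (0.35), Rps2 (0.11), Rpl14 (0.21), Rplp2 (0.14) and Rpl41 (0.10). Rpl37, from a dim probeset, had means of 6.92 ± 0.40 (SD, n = 4) in WT mice and 7.27 ± 0.33 (SD, n = 6) in DRAI+ mice, a difference about the size of the SDs. Without the 5 narrow arrays the median over members was -0.077, so that its sign turned, and with them as a block 3 members were lower at an unadjusted p under 0.05. The share of all genes at that level was not counted in that setting.

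DRAI- mice against the same WT mice gave a like picture. limma called 0 of 46 members and 0 of all genes, and 0 members had an unadjusted p under 0.05, against 0.993% of all genes higher and 0.365% lower. Ranges were separate for 0 members, against 0.0345% of all genes higher and 0.0276% lower. The median difference over the 48 members was -0.024, with 16 higher and 32 lower (50.2% of all genes were higher), and 46 of 46 tested differed by less than 0.2. Rps29 (0.053), Rps25 (0.084), Rpl12 (0.16), Rps27 (0.073) and Rpl41 (0.053) had the smallest p on the higher side. Rpl37a (-0.12), Rps19 (-0.13), Rplp0 (-0.080), Rps26 (-0.10) and Rpl19 (-0.085) had them on the lower side. Rps19 has an interval from -0.40 to 0.15. Both comparisons use the 4 WT mice, so their results are not independent of each other. WT replicate 4 weighed on both: without it the medians were 0.056 for DRAI+ and 0.032 for DRAI-.

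DRAI+ mice against DRAI- mice shares no WT array. limma again called 0 of 46 members and 0 of all genes (0%). 1 member, or 2.17%, was higher at an unadjusted p under 0.05, against 3.84% of all genes, and 0 were lower, against 5.73%. That member was Rps2, a protein of the small subunit near the entry of the mRNA. It read 12.05, 12.23, 12.29 and 12.12 in CCAT2-G mice, 11.87, 12.03, 12.14 and 12.29 in CCAT2-T mice, and 12.17, 12.29 and 12.49 (lowest, median, highest) in DRAI+ mice. The groups overlapped, and the difference was 0.17 (SE 0.081, unadjusted p = 0.0473, adjusted p = 0.518 by limma). Without CCAT2-T replicate 2, without CCAT2-T replicate 3 or without the narrow arrays, 0 members were higher at that level, and 1, 0 and 2 were lower. The shares of all genes in these settings were not counted.

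The other members of smallest p in this comparison were Rpl37a (0.19), Rplp0 (0.13), Rpl7a (0.11) and Rpl19 (0.12) on the higher side. Rps25 (-0.16), Rps7 (-0.093), Rps29 (-0.055), Rps14 (-0.058) and Rps27 (-0.10) stood on the lower side. No ranges were separate, against 0.00689% of all genes higher and 0.0896% lower. The median over 48 members was 0.022, with 27 higher and 21 lower (48.3% of all genes were higher), and without the narrow arrays it was -0.055. Rps14 could be bounded more tightly than any other member here except Rps29, with an interval from -0.18 to 0.061. B-cell markers, which had a median difference of -1.3 over 13 mature markers, stand beside these values for scale.

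The allele comparisons asked whether G and T mice differ. CCAT2-G mice against WT gave 0 of 46 members called by limma and 0 at an unadjusted p under 0.05, against 0.917% of all genes higher and 0.655% lower. Ranges were separate for 0 members, against 0.462% of all genes higher and 0.421% lower. The median was 0.029, with 35 higher and 13 lower (53.2% of all genes were higher), and it was -0.011 without the narrow arrays. Rpl12 (0.29), Rps27l (0.26) and Rps4l (0.29) led the higher side, and Rpl27a (-0.21), Rpl7a (-0.065) and Rpl37a (-0.078) the lower. CCAT2-T mice against the same WT mice gave 0 of 46 called and 2 lower at an unadjusted p under 0.05 (4.35% of the members), against 1.41% of all genes, with 0 higher, against 1.70%. The 2 were Rps26 (-0.24, SE 0.11) and Rpl27 (-0.21, SE 0.10), both with adjusted p = 0.928 by limma, and Rpl19 was next at -0.21. With the narrow arrays as a block 5 members were lower at that level and 0 higher, and without CCAT2-T replicate 2 there was 1 lower. Without CCAT2-T replicate 3 there were 0 in either direction, and without the narrow arrays 0 lower and 1 higher. The shares of all genes in these settings were not counted, so these counts have none beside them. Both other probesets of Rpl27 differed in the opposite direction. Again 0 members had separate ranges, against 0.848% of all genes higher and 0.841% lower. The median was -0.089, with 12 higher and 36 lower (50.5% of all genes were higher), and without the narrow arrays it was -0.072. Rplp2 (0.15), Rps27 (0.10) and Rps28 (0.065) led the higher side.

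The largest differences lay between the alleles themselves, and none passed adjustment. In CCAT2-G against CCAT2-T mice limma called 0 of 46 members and 0 of all genes (0%). At an unadjusted p under 0.05, 7 members (15.2%) were higher in CCAT2-G mice, against 4.21% of all genes, and 0 were lower, against 2.08%. The median over the 48 members was 0.098, with 37 higher and 11 lower, while 49.4% of all genes tested were higher. The 7 were Rpl27 (0.29), Rps26 (0.28), Rpl19 (0.24), Rps4l (0.60), Rpl7 (0.30), Rps27l (0.47) and Rps19 (0.30), with adjusted p from 0.743 to 0.779. The median stayed above 0 under each scaling, filter and model tried, from 0.043 with the narrow arrays as a block to 0.197 with array weights.

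Counts of small p-values among members moved with the arrays left out. The shares of all genes in these settings were not counted, so the counts have none beside them. Without the 5 narrow arrays, which leaves 3 CCAT2-G and 2 CCAT2-T mice, 1 member was higher (Rps26, 0.36) and 1 lower (Rplp2, -0.49) at an unadjusted p under 0.05, and the median was 0.052. In those 5 mice Rpl27 differed by 0.30, Rpl19 by 0.27, Rps27l by 0.50, Rps19 by 0.19 and Rps4l by 0.38. Over all mice the differences were 0.29, 0.24, 0.47, 0.30 and 0.60 in the same order. CCAT2-T replicate 3 is among those 5 mice. Without CCAT2-T replicate 2 there were 3 higher and 1 lower. With the narrow arrays as a block there were 6 higher and 1 lower, and without CCAT2-T replicate 3 there were 7 higher and 0 lower. These 7 were not all the same genes as over all mice. Without that mouse Rps26 (0.18), Rpl19 (0.18) and Rps19 (0.32) had an unadjusted p above 0.05 by limma. Rpl27 (0.22) stayed below it, and Rpl12 (0.52) came below it. CCAT2-G mice had 1 narrow array of 4 and CCAT2-T mice 2 of 4, and the part of this in the difference was not tested. All 10 stromal markers and all 8 megakaryocyte markers were also higher in CCAT2-G mice, by medians of 0.702 and 1.00. All 11 immediate-early genes (median -0.84) and all 10 muscle genes (median -0.40) were lower there, and these differences came from few mice. The immediate-early list mean was 9.10 and 7.35 in CCAT2-T replicates 3 and 4. In CCAT2-T replicates 1 and 2 it was 5.68 and 5.56, and in CCAT2-G mice 5.56 to 6.22. The muscle list mean was 6.11 in CCAT2-T replicate 1, against 4.50, 4.31 and 4.34 in the other CCAT2-T mice and 4.31 to 4.42 in CCAT2-G mice. The part of these lists was not tested either.

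**Figure D3:**
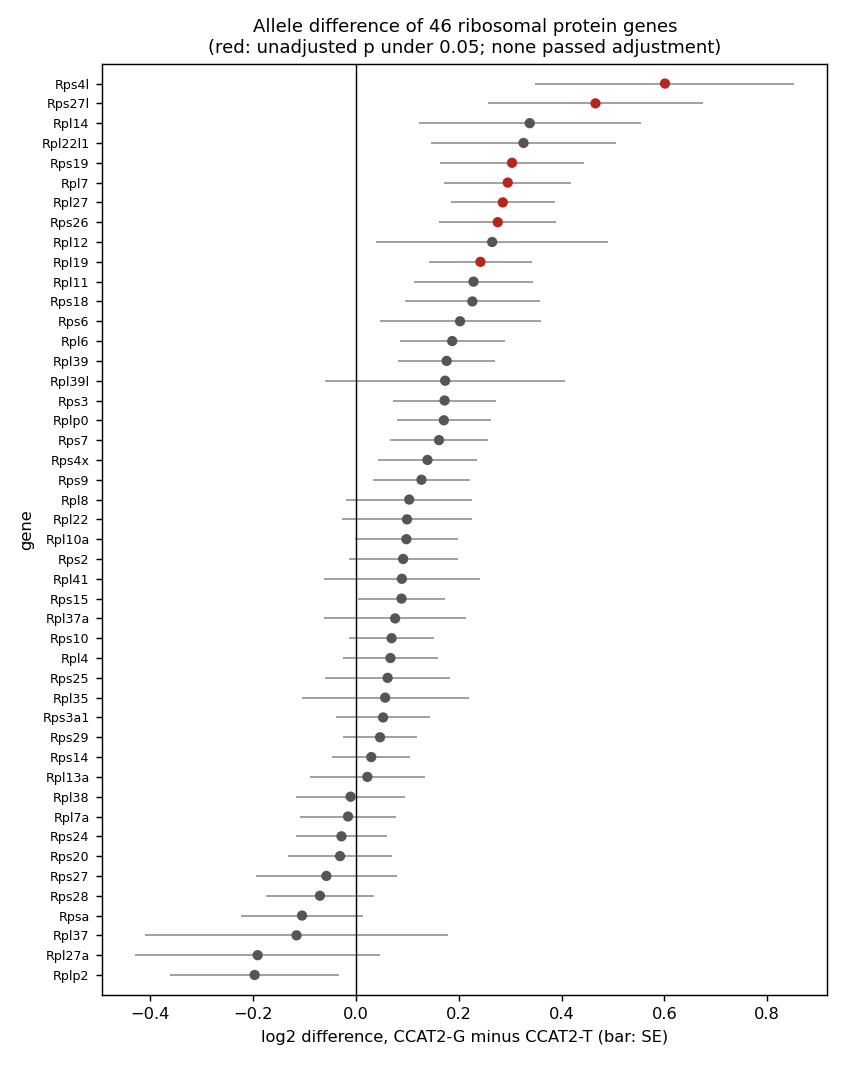
Log2 difference between CCAT2-G and CCAT2-T mice (horizontal axis, bars give the SE) for the 46 tested genes, sorted by size (vertical axis). 36 of the 46 lie above 0, and the 7 in red had an unadjusted p under 0.05.

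Only 1 of the 46 tested members had values that did not overlap between the alleles. Of all genes 1.16% were apart in that direction and 1.13% in the other, so 1 member is near the share of all genes. The member was Rps26, whose human counterpart is a Diamond-Blackfan anaemia gene. It read 12.36, 12.51, 12.40 and 12.47 in CCAT2-G mice and 12.20, 12.24, 11.89 and 12.31 in CCAT2-T mice. Every CCAT2-G mouse lay above every CCAT2-T mouse, though the nearest pair, at 12.36 and 12.31, lay close together, and CCAT2-T replicate 3 was the lowest. The WT values of 12.31, 12.39, 12.29 and 12.60 overlapped both, as did the CCAT2-GT values of 12.12, 12.47 and 12.54 (lowest, median, highest). The difference of 0.28 (SE 0.11) had an unadjusted p of 0.0256 and an adjusted p of 0.757 by limma. Without CCAT2-T replicate 3 it was 0.18, with an unadjusted p of 0.111 by limma.

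Rpl27, a large-subunit protein, had the smallest unadjusted p of all members, 0.0113 (adjusted p = 0.743 by limma). It read 11.27, 11.36, 11.35 and 11.49 in CCAT2-G mice and 11.01, 11.12, 10.90 and 11.30 in CCAT2-T mice. Only CCAT2-T replicate 4 reached into the range of the CCAT2-G mice. This rests on 1 of 3 probesets: for the other 2 the difference was 0.028 and -0.058, and the mean over the 3 gave 0.085.

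Rps19, the gene most often mutated in Diamond-Blackfan anaemia, read 11.44, 11.70, 11.85 and 11.75 in CCAT2-G mice and 11.19, 11.20, 11.43 and 11.72 in CCAT2-T mice. The lowest CCAT2-G mouse and the 2 lowest CCAT2-T mice were all on narrow arrays, and the groups overlapped. The difference of 0.30 (SE 0.14, unadjusted p = 0.0441, adjusted p = 0.779 by limma) was 0.19 without the narrow arrays. In WT mice Rps19 read 11.52, 11.45, 11.72 and 11.96, again with the 2 narrow arrays lowest.

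**Figure D4:**
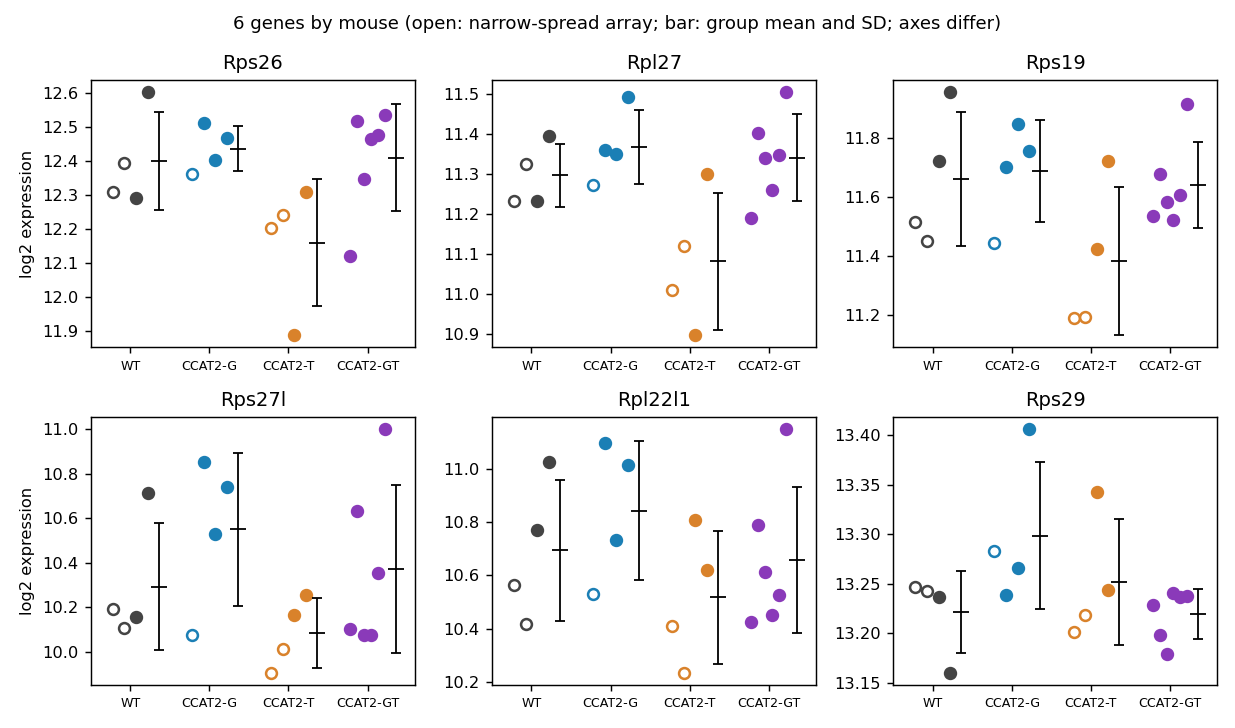
Log2 expression of Rps26, Rpl27, Rps19, Rps27l, Rpl22l1 and Rps29 in each mouse by group; open points are narrow arrays, bars give group mean and SD, and the vertical axes differ between panels. Rps26 in CCAT2-G and CCAT2-T mice does not overlap, and for Rps19 the narrow arrays of WT, CCAT2-G and CCAT2-T mice are the lowest of their groups.

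Of the 5 paralogs on the array, 4 were higher in CCAT2-G than in CCAT2-T mice, with a median of 0.326, and 2 of the 4 tested were higher at an unadjusted p under 0.05, against 49.4% and 4.21% of all genes. Rps27l, a paralog of Rps27 induced by p53, read 10.08, 10.85, 10.53 and 10.74 in CCAT2-G mice and 9.91, 10.01, 10.17 and 10.26 in CCAT2-T mice. The first CCAT2-G mouse, on a narrow array, lay among the CCAT2-T mice. The difference of 0.47 had a 95% interval from 0.028 to 0.90 (adjusted p = 0.779 by limma), and the other 2 probesets gave 0.46 and 0.51. Rpl22l1, the paralog of Rpl22, read 10.53, 11.10, 10.73 and 11.02 against 10.41, 10.23, 10.81 and 10.62, so that the groups overlapped (0.33, adjusted p = 0.781 by limma). Rps4l, the transcribed pseudogene, read 4.85, 5.64, 4.86 and 5.35 against 4.12, 4.36, 4.56 and 5.25, at a signal that is low for an array. Its highest CCAT2-T value lay inside the range of the CCAT2-G mice. Rps27l also had the widest range of any bright member over the 18 mice, from 9.91 in CCAT2-T replicate 1 to 11.00 in CCAT2-GT replicate 6.

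The stalk proteins recruit elongation factors to the ribosome. Rplp0, the stalk's base, differed between the alleles by 0.17 (unadjusted p = 0.0795). Rplp2 differed by -0.20, with values of 12.27, 12.41, 12.58 and 12.48 in CCAT2-G mice and 12.40, 12.17, 13.14 and 12.83 in CCAT2-T mice. CCAT2-T replicate 3 was the highest of all 18 mice for Rplp2 and the lowest of all 18 for Rplp0, at 12.39. The difference of Rplp2 was -0.030 without that mouse and -0.49 without the narrow arrays. Rpsa (-0.11) and Rpl27a (-0.19) were the next lower members of smallest p, with -0.048 and -0.031 without CCAT2-T replicate 3. Rpl11, which binds MDM2 when ribosome assembly is disturbed, read 11.01, 11.34, 11.31 and 11.36 in CCAT2-G mice and 10.96, 10.84, 11.22 and 11.09 in CCAT2-T mice, a difference of 0.23 (adjusted p = 0.779 by limma) with overlapping groups. Of the 11 members known as Diamond-Blackfan anaemia genes, 8 were higher in CCAT2-G mice with a median of 0.069, and 3 were higher at an unadjusted p under 0.05, where 49.4% of all genes were higher and 4.21% higher at that level. In DRAI+ against WT mice, 3 of the 11 were higher and 8 lower, with a median of -0.020 and 0 at that level, where 49.5% of all genes were higher, 1.18% higher at that level and 1.45% lower.

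CCAT2-T replicate 3 had bright members at both ends of the range. Against the other 12 wider arrays, 6 bright members lay above all of them and 12 below all of them. The next mice by this count were CCAT2-GT replicate 6, with 15 above and 0 below, WT replicate 4, with 8 above and 1 below, and CCAT2-GT replicate 4, with 0 above and 8 below. Against the mean of the other wider arrays Rps26 differed by -0.53 and Rpl27 by -0.45. Probesets of the same gene went opposite ways in this mouse: the other 2 of Rpl27 differed by 0.67 and 0.23. The brightest probeset of Rps9 had -0.20 while a second had 0.55, and Rps15 had -0.10 against 0.63. Of the 18 members with several probesets above 9, the probesets agreed in direction in 7. For the allele difference they agreed in 13 of 18, for DRAI+ against WT in 12, for CCAT2-T against WT in 11 and for DRAI+ against DRAI- in 8. The immediate-early genes, known to respond to handling and stress, had a list mean of 9.10 in this mouse. It was 9.59 in WT replicate 3 and 8.91 in CCAT2-GT replicate 1. By the count above, WT replicate 3 had 0 above and 0 below, and CCAT2-GT replicate 1 had 0 above and 6 below. Xist, the RNA of X inactivation and a marker of female cells, read 12.02 in this mouse and 10.71, 11.16 and 10.78 in CCAT2-GT replicates 2, 3 and 5, and between 3.52 and 4.05 in the other 14 mice. Without those 4 mice the medians over members were -0.0026 for DRAI+ against WT, -0.033 for DRAI- against WT, 0.027 for DRAI+ against DRAI-, 0.029 for CCAT2-G against WT, -0.11 for CCAT2-T against WT and 0.12 for CCAT2-G against CCAT2-T. The part of handling, of sex, of RNA quality or of the probes in the pattern was not tested.

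**Figure D5:**
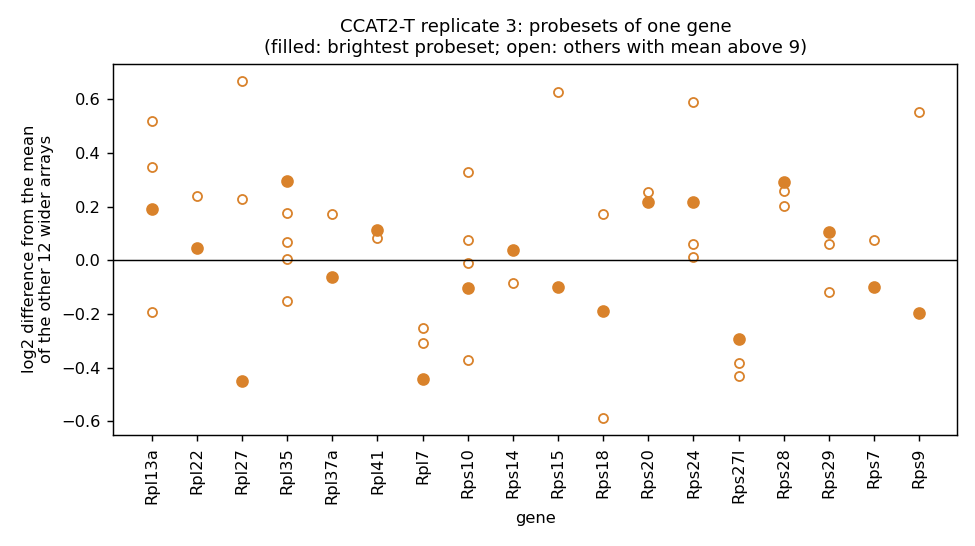
Difference of CCAT2-T replicate 3 from the mean of the other 12 wider arrays in log2 units (vertical axis) for each probeset with a mean above 9 of the 18 genes (horizontal axis) that have several; filled points are the brightest probeset of each gene. Filled and open points lie on opposite sides of 0 for Rpl27, Rps15 and Rps9, among others.

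The probesets shared with other symbols gave a second reading. Taking the brightest of them for each of 38 genes, the median differences were 0.0040 for DRAI+ against WT, -0.025 for DRAI- against WT, 0.035 for DRAI+ against DRAI-, 0.018 for CCAT2-G against WT, -0.072 for CCAT2-T against WT and 0.084 for CCAT2-G against CCAT2-T. All 6 lay within 0.02 of the medians over members. In the last comparison 30 of the 38 were higher in CCAT2-G mice. Rpl5, the partner of Rpl11 and not a member because its probesets list further symbols, differed there by 0.21. Rplp1, the partner of Rplp2, differed by 0.11.

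Other genes of ribosome making and control were read from fixed lists. In DRAI+ against WT mice none of them passed: 0 of 38 assembly and ribosomal RNA genes, 0 of 61 mitochondrial ribosomal protein genes, 0 of 19 other TOP mRNAs and 0 of 23 mTOR and LARP1 pathway genes were called by limma. At an unadjusted p under 0.05 there was 1 gene, against 1.18% of all genes higher and 1.45% lower. That gene, lower in DRAI+ mice, was Rragd, which encodes a Rag GTPase of the mTOR pathway. Its difference was -0.66 (SE 0.24, unadjusted p = 0.0123 and adjusted p = 1.0 by limma). It differed by -0.67 in DRAI- mice, -0.62 in CCAT2-G mice and -0.72 in CCAT2-T mice against the same 4 WT mice, which all these comparisons share. In CCAT2-G against CCAT2-T mice, 9 of the 38 assembly genes, 20 of the 61 mitochondrial ribosomal protein genes, 5 of the 19 other TOP mRNAs and 3 of the 23 pathway genes were higher at that level, 0 were lower and 0 were called. Of all genes, 4.21% were higher at that level and 2.08% lower. The medians over these lists were 0.277, 0.30, 0.083 and 0.0081, beside 0.098 for the cytosolic ribosomal protein genes and -0.0031 for all genes tested. Nop58, a core protein of box C/D small nucleolar particles, differed by 0.68, Wdr12, an assembly factor of the large subunit, by 0.65, Eif4e, the cap-binding protein, by 0.55 and Mrps24 by 0.71. The narrow arrays also read lower for the first 3 of these lists, with medians of -0.29, -0.29 and -0.27, and their part was not tested. Among the other TOP mRNAs, 16 of 19 were higher in CCAT2-G mice, where 49.4% of all genes were higher. Eif3h (0.31) and Btf3 (0.32) had the smallest p, while Eef1a1 (0.014), Fau (-0.065) and Tpt1 (0.0037) lay close to 0 between the alleles. Myc differed by 0.39 with an SE of 0.23.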

How the data were processed

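Total RNA of 18 bone marrow samples, titled as biological replicates, was labelled and hybridised to 3′ Affymetrix arrays. The authors deposited log2 expression values for 45101 probesets, normalized between arrays with RMA, per the submitters' processing notes. The labels name no RMA version or probe definition file, and the log2 scale was taken from the values (1.56 to 14.2). Array medians were 4.27 to 4.40. Arrays give no depth, so their number limits the precision, and p-values measure the spread between these mice.

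Gene names came from the platform annotation, which lists 1 symbol for 34958 probesets, several for 932 and none for 9211. The brightest probeset stood for each gene, and genes were tested where their mean reached the 30th percentile of probeset means (3.30). A difference is the first group's log2 mean less that of the other, from limma 3.58.1 (R 4.3.3, moderated with a mean trend) over 14505 genes, with 3 groups for DRAI status and 4 for the alleles. p-values were adjusted over all genes with Benjamini and Hochberg's method at 0.05, and no test was made over the members as a list. The procedure was tested on simulated data.

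The members and all lists were chosen with earlier results of these data known. Genes named are the 5 members of smallest p in each direction for the DRAI comparisons and 3 for the alleles, the 5 of largest and of smallest SD, the 3 brightest and 3 dimmest, those below the filter, a fixed panel, and the 2 of smallest p of the other lists, though not all of the last are printed. Rpl7, Rps9, Rps15 and Rpl10a were named after their values were seen. Rpl5 and Rplp1 were in the fixed panel, but they were read from shared probesets, which were added after seeing the data. Replicate numbers mark no shared animal or day in the labels and were not used as pairs.

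Alternatives covered scaling, filter, choice of probeset, variance model, array weights, the groups fitted, covariates and left-out mice. Sets of mice left out for stroma or Xist signal, the narrow arrays taken alone, and shared probesets were added after seeing the data.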

Additional observations from a re-analysis of the deposited data

Results flagged for a closer look

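The named members and the mean over the 36 bright ones gave 140 sets of 4 or 6 mice, 1 for each value and group. Of these, 10 held a mouse whose gap to its nearest neighbour, divided by the range of its group, passed Dixon's critical value (0.829 for 4 mice, 0.625 for 6). Chance gives about 1 in 20 groups.

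CCAT2-G replicate 1, the narrow array of its group, was the lowest in 4 of these: Rpl11 at 11.006 with the next mouse at 11.309, Rpl38 at 12.245 against 12.532, Rpl7a at 12.403 against 12.573 and the dim Rpl12 at 6.1357 against 6.3721. WT replicate 4 was the highest of its group for Rps27l, at 10.716 against 10.192, and the lowest for Rps29, at 13.16 against 13.236. CCAT2-GT replicate 6 was the highest for Rpl13a, at 12.956 against 12.729, and for Rps7, at 12.544 against 12.36. CCAT2-T replicate 4 was the highest for Rps4x, at 12.485 against 12.273, and CCAT2-T replicate 1 for Rpl3l, a probeset below the filter, at 3.7834 against 3.2258.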

How the results depend on the processing

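No ribosomal protein gene passed limma's adjusted test in any of the 6 comparisons under any alternative, left-out mice included. Counts over all genes did move: DRAI+ against WT gave 456 genes with array weights, and CCAT2-G against CCAT2-T gave 1 after quantile normalization and 1 with a filter at the 50th percentile. Leaving out 1 mouse at a time gave 0 to 7 genes for DRAI+ against DRAI- (7 without CCAT2-G replicate 3) and 0 to 1 for the alleles (1 without CCAT2-T replicate 1). Every alternative moved the median over members by less than the 0.138 SD between mice. All 6 medians were themselves smaller in size than this SD, so this does not show that their signs held. Without the narrow arrays the sign turned for DRAI+ against WT, DRAI+ against DRAI- and CCAT2-G against WT, as given above for the median over members. With 1 mouse left out this median ran from -0.036 to 0.056 for DRAI+ against WT, from -0.062 to 0.032 for DRAI- against WT, from -0.011 to 0.043 for DRAI+ against DRAI-, from -0.0046 to 0.078 for CCAT2-G against WT, from -0.12 to -0.030 for CCAT2-T against WT and from 0.052 to 0.16 for the alleles. The 48 results of members named for the smallest p in a comparison had 1414 alternatives. Of these, 7 moved by more than 1 SD and 35 turned the sign. Other results given above, such as Rps19 and Rps27l between the alleles, were not among the 48.

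Whether replicate numbers mark a shared day was not settled. The 24 same-number pairs had correlations from -0.36 to 0.672 in their deviations, 11 of them over 0.1, with no value for other pairs beside them. Of the mice of other groups, the best correlated had the same number for 6 of 18 mice, though CCAT2-GT replicates 5 and 6 have no such partner. The narrow arrays all carry number 1 or 2. With the replicate block the medians over members were -0.027, -0.024, 0.0020, 0.029, -0.089 and 0.098, in the order of comparisons above, and 0 members were called. Probesets high in an array's range, or shared with pseudogenes, limit what differences can show here.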
